A study of Mus musculus with 24 samples.

Results

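Gene expression 28 days after bile duct ligation (BDL) was compared between livers of mice lacking N-RAS and wildtype livers. The 6 arrays of this comparison, of 24 in the series, were the 3 titled NRAS-/- BDL (N10, N11 and N12) and the 3 titled wildtype BDL (N04, N05 and N06). All 21144 genes that a probe set with a single gene symbol carried were tested. The series holds 8 groups of 3 arrays, in which NRAS-/- and wildtype mice underwent BDL or a sham operation, or received CCl4 or corn oil. Both ligated groups were labelled as male mice included at 8 to 10 weeks of age, operated and killed on day 28. The study's methods give a C57BL/6J background for both genotypes and a check of the deletion in tail DNA, so the gene was missing from the whole animal and not from 1 liver cell type. The labels name no pooling and do not state that each array is a separate mouse, so p-values measure the spread between arrays.

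N-RAS is a small GTPase that passes signals from growth factor receptors to the Raf kinases and to PI3K. Ligation of the bile duct dams bile in the liver, and the bile duct epithelium proliferates, macrophages and neutrophils gather and scar matrix is laid down around the portal tracts. Hepatocytes, which seldom divide in a resting adult liver, can re-enter the cell cycle after such injury.

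The labels were first checked against Nras itself. Its log2 value was 4.86, 4.92 and 4.55 in NRAS-/- BDL livers (N10, N11, N12) and 6.89, 7.43 and 6.49 in wildtype BDL livers (N04, N05, N06). The genotypes did not overlap, and the difference was -2.16 ± 0.23 log2 (SE of the limma fit over 12 arrays, adjusted p = 0.000574). Its relative Hras differed by -0.13 ± 0.17 log2, with an adjusted p of 0.827 by limma. Of the 10 Ras family genes measured, Nras alone passed the test. Within 10 Mb of Nras, 265 genes were tested and 2 passed, a share near the 0.705% of all genes that did. They were Elapor1 (0.80 ± 0.17 log2) and Wars2 (0.88 ± 0.16 log2), both higher in NRAS-/- BDL livers.

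The ligated arrays had the markers of liver and of obstruction. The hepatocyte genes Alb, Apoa1 and Ttr lay between 12.72 and 13.52 log2 on all 6 arrays. Krt7 and Krt19, keratins of the bile duct epithelium, lay at 6.40 to 8.44 and 5.09 to 7.14 log2 on the ligated arrays, above their 5.27 to 5.76 and 3.95 to 4.40 log2 on the 6 sham arrays. Array N12 stood apart. The mean over 31 skeletal muscle genes was 7.0 log2 on N12, against 4.21 to 4.45 on the other 5 ligated arrays, and Acta1 and Myh8, the actin and a myosin of skeletal muscle, reached 10.88 and 9.98 log2 there. None of the 31 muscle genes passed the genotype test. The mean of 4 Y-linked genes was 7.47 to 8.25 log2 on the ligated arrays but 3.19 to 3.59 on 5 of the 6 sham arrays (all 3 NRAS-/- and 2 of the 3 wildtype ones), which goes against their label as males. The sham arrays entered the fit as further groups that share its estimate of the spread. The test was therefore repeated without N12 and with the 6 ligated arrays alone.

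After BDL, 149 of 21144 genes (0.705%) differed between the genotypes at an adjusted p under 0.05 (limma, Benjamini-Hochberg over all genes), 111 higher (0.525%) and 38 lower (0.18%) in NRAS-/- BDL livers. The arrays of the genotypes did not overlap for any of the 149, and 96 of them differed by at least 2-fold. Of all genes, 8.32% were higher and 8.29% lower without overlap, and the unadjusted p lay under 0.05 for 6.74% upwards and 5.26% downwards. Without N12, 106 genes were higher (0.501%) and 38 lower (0.18%), of which 67 and 26 were among those called with it. With the 6 ligated arrays alone, 34 were higher and 22 lower, and 49 of these 56 were among the 149. Of the 57 genes named by rule that passed, 14 no longer passed without N12 and 23 with the 6 ligated arrays alone. The median difference over all genes was -0.02 log2.

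The largest increase was in Dab1, the adaptor that carries reelin signals into the cell. It read 9.09, 8.64 and 8.65 log2 in NRAS-/- BDL livers and 5.84, 5.62 and 5.52 in wildtype BDL livers, a gap far wider than the spread within either genotype (3.13 ± 0.27 log2, 8.76-fold, adjusted p = 9.84e-05). Calml4, a calmodulin-like protein, read 5.81, 6.29 and 5.68 log2 in NRAS-/- BDL livers and 3.63, 3.59 and 3.17 in wildtype BDL livers (2.47 ± 0.19 log2, 5.53-fold). Both passed in each of the 6 fits that left out 1 ligated array.

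Abca3, a lipid transporter best known from the surfactant-storing cells of the lung, was at 10.45, 10.59 and 10.26 log2 in NRAS-/- BDL livers, against 8.20, 8.84 and 7.92 in wildtype BDL livers (2.11 ± 0.22 log2). Gatm, the enzyme of the committed step of creatine synthesis, rose by 2.05 ± 0.23 log2 and Wdr72, a WD repeat protein needed for tooth enamel, by 2.16 ± 0.15 log2. Neither gene overlapped between the genotypes on any array. Prelid2 (2.46 ± 0.30 log2), Abi3bp, a protein of the extracellular matrix (1.84 ± 0.25 log2), and Catspere2, named for a sperm calcium channel (1.83 ± 0.26 log2), completed the large rises that held whichever ligated array was left out, beside Prc1 below.

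Akr1c18 and Glipr2 rose with a wider spread. Akr1c18, a hydroxysteroid dehydrogenase that inactivates progesterone, read 5.47, 8.22 and 6.12 log2 in NRAS-/- BDL livers and 3.86, 3.63 and 4.15 in wildtype BDL livers. N11 was the highest of the 3 NRAS-/- arrays by a wide margin, and all 3 lay above all wildtype arrays (2.73 ± 0.51 log2, adjusted p = 0.0271). Glipr2, a protein of the Golgi membrane, rose by 1.80 ± 0.31 log2. Either gene missed the threshold with the 6 ligated arrays alone, at adjusted p of 0.139 for Akr1c18 and 0.131 for Glipr2 by limma.

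**Figure D1:**
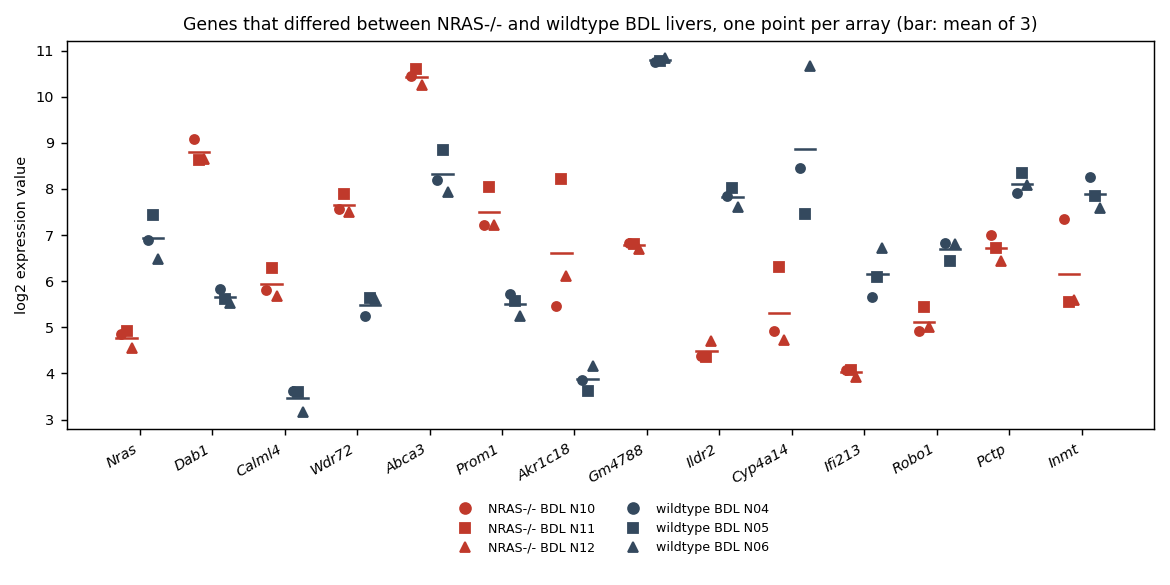
Log2 expression value (vertical axis) of 14 genes on the 3 NRAS-/- BDL arrays (red, left of each pair) and the 3 wildtype BDL arrays (dark blue, right), with 1 point per array and a bar at the mean of 3. For every gene the red and blue points stay apart; Akr1c18, Cyp4a14 and Inmt each have 1 array far from the other 2 (N11, N06 and N10).

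The largest decrease was in Gm4788, which the gene annotation also lists as Cfhrc. It read 6.84, 6.80 and 6.69 log2 in NRAS-/- BDL livers and 10.74, 10.78 and 10.83 in wildtype BDL livers, so that arrays of a genotype were close to each other while the genotypes differed by -4.01 ± 0.18 log2 (adjusted p = 7e-08, limma). Ildr2, a membrane protein linked to hepatic lipid handling in mice, read 4.38, 4.36 and 4.71 log2 in NRAS-/- BDL livers and 7.86, 8.02 and 7.60 in wildtype BDL livers. Its wildtype level was 10.2-fold that of NRAS-/- BDL livers (-3.35 ± 0.43 log2, adjusted p = 0.00217).

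Cyp4a14, a fatty acid omega-hydroxylase and a target of PPAR-alpha, was at 4.91, 6.32 and 4.72 log2 in NRAS-/- BDL livers, against 8.45, 7.45 and 10.67 in wildtype BDL livers. The wildtype arrays were spread widely (SD 1.65 log2), and the difference of -3.54 ± 0.73 log2 passed narrowly (adjusted p = 0.0467), in 1 of the 6 fits without a ligated array (that without N05), and not with the 6 ligated arrays alone (adjusted p = 0.129, limma). It was the only one of 26 PPAR-alpha targets and fatty acid oxidation genes that passed, where 0.18% of all genes passed downwards. Its next member by p-value, Cyp4a31, read -2.40 ± 0.55 log2 with an adjusted p of 0.0709, or 0.015 without N12, by limma. The median of that list was -0.17 log2, and 0.00 with 13 of 26 differences above 0 without N06. The list mean was 9.66 log2 on N06, against 8.68 to 8.89 on the other 5 ligated arrays.

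Robo1, a receptor for Slit guidance cues, fell to 4.93, 5.45 and 5.0 log2 in NRAS-/- BDL livers, against 6.82, 6.45 and 6.81 in wildtype BDL livers (-1.57 ± 0.20 log2). Pctp, the phosphatidylcholine transfer protein, differed by -1.40 ± 0.24 and Aspdh, which carries an aspartate dehydrogenase domain, by -1.74 ± 0.20 log2. Inmt, a methyltransferase of tryptamine and related amines, read 7.36, 5.55 and 5.58 log2 in NRAS-/- BDL livers and 8.26, 7.84 and 7.59 in wildtype BDL livers (-1.73 ± 0.37 log2). Its N10 value lay just below the lowest wildtype array, and it passed in 1 of the 6 fits without a ligated array. The other large falls were in 1700001C19Rik (-2.41 ± 0.24 log2), Ube2u, Erdr1, Gabra3 and Pyurf, all without overlap between genotypes.

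Genes of the Ifi200 family, whose proteins sense DNA in the nucleus and cytoplasm, were lower. The family was picked after its values were seen. Of its 10 measured members, 4 fell, Ifi213 (-2.12 ± 0.25 log2), Mndal (-1.59 ± 0.17), Ifi209 (-1.36 ± 0.23) and Ifi208 (-1.33 ± 0.25), where 0.18% of all genes fell. All 10 differences were below 0 and the median was -0.72 log2. Ifi213 read 4.08, 4.08 and 3.93 log2 in NRAS-/- BDL livers and 5.66, 6.08 and 6.72 in wildtype BDL livers. Of 22 other interferon-stimulated genes none passed, and their median was 0.19 log2. Members of the family are close in sequence, and the probe sets may share signal between them.

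Genes of mitosis were higher in NRAS-/- BDL livers. Of the 32 measured, 5 passed and none was lower, where 0.525% of all genes passed upwards. All 32 differences were above 0, with a median of 1.14 log2, and for 24 of them the NRAS-/- arrays lay above every wildtype array, against 8.32% of all genes. Kif20a is a kinesin of the central spindle, Prc1 bundles the spindle's midzone microtubules, Racgap1 and Ect2 act together in placing the cleavage furrow, and Ccnb2 is a B-type cyclin.

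The promoters of Ccnb2, Prc1 and Racgap1 and of the replication gene Mcm3, which also passed, are shown as examples because the genes moved together. The sequences are from RefSeq (GRCm38.p6) and run 5′ to 3′ from 250 bases before to 50 after the start of the transcript (for Prc1, the first of 2 starts listed). Capitals mark 4 motifs searched on both strands, the CHR element TTTGAA and the CCAAT box, known from promoters of G2 and M phase genes, and the E2F forms TTTCCCGC and TTTGGCGC, known from replication genes. None of the marked motifs overlaps another.
Ccnb2 promoter, chr9:70421505-70421804, minus strand: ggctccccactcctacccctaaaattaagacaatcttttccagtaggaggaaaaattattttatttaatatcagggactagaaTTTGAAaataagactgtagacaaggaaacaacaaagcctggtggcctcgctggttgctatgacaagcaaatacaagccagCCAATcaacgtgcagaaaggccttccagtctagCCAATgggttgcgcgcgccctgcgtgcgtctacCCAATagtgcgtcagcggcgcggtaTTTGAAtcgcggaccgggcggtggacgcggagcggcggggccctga
Prc1 promoter, chr7:80294201-80294500, plus strand: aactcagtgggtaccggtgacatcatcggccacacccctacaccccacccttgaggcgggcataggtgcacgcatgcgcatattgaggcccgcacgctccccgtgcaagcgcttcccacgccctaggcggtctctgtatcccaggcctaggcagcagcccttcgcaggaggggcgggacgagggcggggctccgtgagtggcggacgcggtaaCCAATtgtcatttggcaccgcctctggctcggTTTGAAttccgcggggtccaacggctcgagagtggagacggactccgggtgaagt
Racgap1 promoter, chr15:99651607-99651906, minus strand: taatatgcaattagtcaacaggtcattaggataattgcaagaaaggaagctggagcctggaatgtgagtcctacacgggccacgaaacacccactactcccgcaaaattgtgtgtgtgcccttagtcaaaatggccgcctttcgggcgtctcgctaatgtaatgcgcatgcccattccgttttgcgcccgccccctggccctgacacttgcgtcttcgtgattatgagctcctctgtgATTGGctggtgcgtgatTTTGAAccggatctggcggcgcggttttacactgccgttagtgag
Mcm3 promoter, chr1:20820263-20820562, minus strand: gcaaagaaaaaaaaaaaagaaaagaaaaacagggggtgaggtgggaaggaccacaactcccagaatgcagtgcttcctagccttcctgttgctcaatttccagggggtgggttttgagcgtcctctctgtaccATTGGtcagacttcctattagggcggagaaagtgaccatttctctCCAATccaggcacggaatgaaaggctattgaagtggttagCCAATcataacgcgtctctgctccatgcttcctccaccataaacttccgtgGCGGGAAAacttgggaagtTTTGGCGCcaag
Of the 7 genes of mitosis and replication that passed, 6 were in the promoter table. All 6 held CCAAT and 5 held TTTGAA as well, all but Mcm3, which held both E2F forms. Over the 32851 promoters of that table, CCAAT was in 37.4%, TTTGAA in 17.9%, both in 6.95% and either E2F form in 1.56%. These matches are a description of the letters in each window.

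Kif20a read 5.31, 7.32 and 5.0 log2 in NRAS-/- BDL livers and 3.21, 3.59 and 3.16 in wildtype BDL livers (2.56 ± 0.43 log2, 5.89-fold, adjusted p = 0.0141). Prc1 read 5.34, 6.55 and 5.29 log2 in NRAS-/- BDL livers and 4.14, 3.37 and 4.08 in wildtype BDL livers (1.86 ± 0.29 log2, adjusted p = 0.00864). In both genes N11 was the highest array and every NRAS-/- array was above every wildtype array. Racgap1 rose by 2.04 ± 0.39 log2, Ect2 by 1.92 ± 0.40 log2 and Ccnb2 by 1.61 ± 0.32 log2. Mki67, the usual stain for dividing cells, read 6.80, 8.64 and 6.82 log2 in NRAS-/- BDL livers and 4.85, 5.32 and 5.80 in wildtype BDL livers, and did not pass (2.10 ± 0.47 log2, adjusted p = 0.064).

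The mean over the 32 mitosis genes was 4.98, 6.50 and 4.86 log2 on N10, N11 and N12, against 4.16, 4.19 and 4.33 on N04, N05 and N06. N11 was far above the other NRAS-/- arrays, which were still above all wildtype ones. Without N11, 4 mitosis genes passed and the median was 0.64 log2, with 31 of 32 differences above 0. Without N12, 11 passed and the median was 1.41 log2, and without N04 or N06 only Prc1 passed.

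None of the 32 passed with the 6 ligated arrays alone (the median is the same there) or with values below 32 on the linear scale set to 32, where the median was 0.47 log2. On wildtype arrays Kif20a, Prc1 and Racgap1 lay at 3.16 to 4.14 log2, where the values of the array run between 2.01 and 13.62.

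The same genes were compared with sham-operated livers of each genotype. In NRAS-/- livers, 18 of the 32 mitosis genes were higher after BDL than after the sham operation (7.18% of all genes were) and the median difference was 1.14 log2. In wildtype livers, where 4.51% of all genes were higher after BDL, none passed by limma, also at an unadjusted p under 0.05, and the median was 0.00 log2. The list means were 4.13 to 4.33 log2 on the NRAS-/- and 4.14 to 4.25 log2 on the wildtype sham arrays, near those of the wildtype BDL arrays, and 5 of these 6 sham arrays carry the low Y-linked signal. These values share the ligated arrays with the comparison above.

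Genes of DNA replication were higher by less. Of 29 measured, 2 passed, where 0.525% of all genes passed upwards, and both are subunits of the replicative helicase. At an unadjusted p under 0.05, 20 of the 29 were higher and none lower, where 6.74% and 5.26% of all genes were. For 14 the NRAS-/- arrays lay above every wildtype array, against 8.32% of all genes. Mcm2 read 7.06, 7.75 and 6.93 log2 in NRAS-/- BDL livers and 5.90, 5.51 and 5.87 in wildtype BDL livers (1.49 ± 0.21 log2, adjusted p = 0.00387), without overlap. Mcm3 rose by 1.43 ± 0.24 log2. Mcm2 also passed in every fit that left out a ligated array and with the 6 ligated arrays alone (adjusted p = 0.0384, limma), where Mcm3 had an adjusted p of 0.0686. Of the 29 differences, 28 were above 0, with a median of 0.63 log2, or 0.42 without N11. In NRAS-/- livers 4 of the 29 were higher and 2 lower after BDL than after the sham operation, with a median of 0.44 log2, where 4.05% of all genes were lower. In wildtype livers none was higher and 1 lower, with a median of -0.25 log2, where 2.7% of all genes were lower. The list means of N10 and N12, 5.85 and 5.94 log2, lay near the 5.64 to 5.92 log2 of the 6 sham arrays, and those of the wildtype BDL arrays, 5.45 to 5.46 log2, lay below them. Mcm6, another helicase subunit, Rrm1, the large subunit of ribonucleotide reductase, and Mcm5 read 1.58, 1.41 and 1.39 log2 with adjusted p of 0.0556, 0.0558 and 0.0685 by limma.

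Further genes of division, outside the lists and picked after their values were seen, were among the calls. Cep55, which works in the final cut between daughter cells, rose by 0.93 ± 0.18 and Timeless, of the replication fork, by 1.06 ± 0.20 log2. Rbl1, a relative of the retinoblastoma protein, rose by 1.46 ± 0.25 log2. Of 58 histone genes, likewise picked afterwards, 5 rose (0.525% of all genes did) and none fell, led by H2ac15 (1.42 ± 0.22 log2); 51 differences were above 0 and the median was 0.42 log2. Histone genes of a cluster are near-identical, and 6 of the 58 had values shared with another probe set. Of 17 p53 targets and CDK inhibitors none passed, and their median was 0.21 log2. At an unadjusted p under 0.05, 4 of the 17 were higher, where 6.74% of all genes were.

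**Figure D2:**
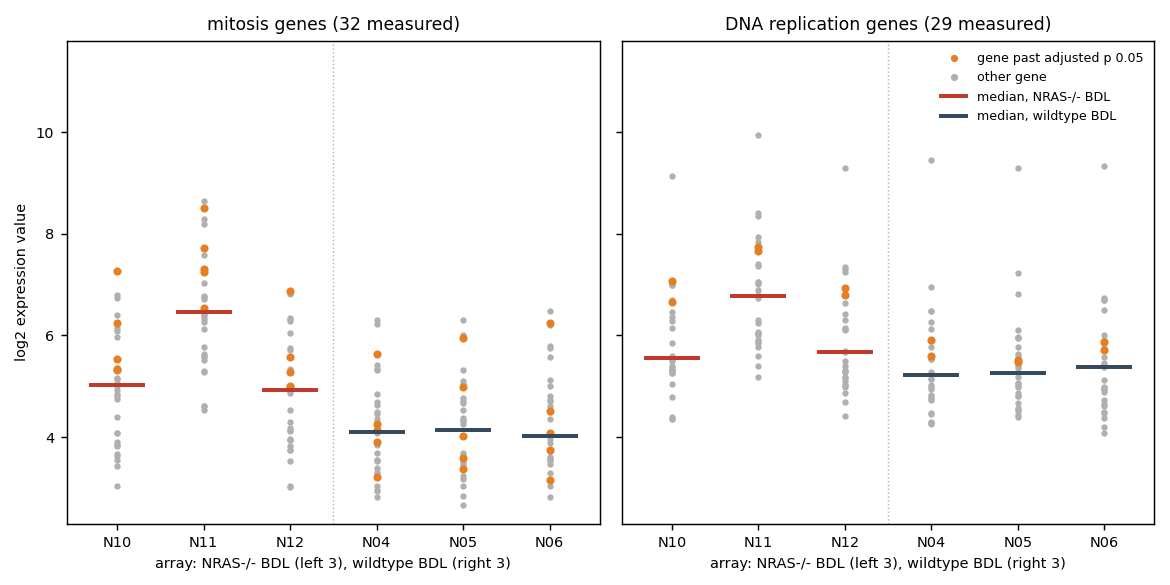
Log2 expression values (vertical axis) of the 32 mitosis genes (left panel) and the 29 DNA replication genes (right panel) on each ligated array, NRAS-/- on the left of the dotted line and wildtype on the right. Orange points passed the test and bars are medians; N11 is the highest array in both panels, and N10 and N12 lie above N04, N05 and N06 by their medians.

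Kupffer cells, the resident macrophages of the sinusoids, take up debris, haemoglobin and complement-coated particles. In these whole-liver samples, more cells of a type and more RNA per cell cannot be told apart. Of 11 Kupffer cell genes, 2 rose in NRAS-/- BDL livers, where 0.525% of all genes did. C1qb, a chain of complement C1q, read 9.97, 10.15 and 9.95 log2 in NRAS-/- BDL livers and 9.14, 9.55 and 9.20 in wildtype BDL livers (0.73 ± 0.14 log2, adjusted p = 0.0319). Cd163, the scavenger receptor for haemoglobin, read 7.75, 8.62 and 8.50 log2 in NRAS-/- BDL livers and 6.90, 6.99 and 6.97 in wildtype BDL livers (1.34 ± 0.27 log2, adjusted p = 0.0445).

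All 11 differences were above 0, with a median of 0.73 log2, but 8 of the 11 genes overlapped between the genotypes (8.32% of all genes were higher without overlap). The list means were 8.96, 9.56 and 9.14 log2 on the NRAS-/- arrays and 8.26, 8.99 and 8.23 log2 on the wildtype arrays, so the wildtype array N05 lay within the NRAS-/- range. Clec4f, a lectin found on Kupffer cells, shows it, with 8.80, 9.72 and 9.07 log2 in NRAS-/- BDL livers and 8.00, 9.15 and 7.73 in wildtype BDL livers (adjusted p = 0.227, limma). None of the 11 passed with the 6 ligated arrays alone or without N11, N12, N04 or N06, and 5 passed without N05. Between the genotypes of sham-operated livers the median of the list was 0.32 log2, and none of the 11 passed. The list means were 8.55 to 8.66 log2 on the NRAS-/- and 8.05 to 8.46 log2 on the wildtype sham arrays, most of which carry the low Y-linked signal.

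Of 18 genes of infiltrating macrophages, 15 differences were above 0, with a median of 0.32 log2. The list means were 7.72, 7.90 and 7.85 log2 on the NRAS-/- arrays and 7.63, 7.63 and 7.44 on the wildtype arrays. At an unadjusted p under 0.05, 5 were higher and 1 lower, where 6.74% and 5.26% of all genes were. Of the list Mmp12 alone, the macrophage elastase, passed, where 0.525% of all genes passed upwards. It read 9.50, 9.05 and 9.15 log2 in NRAS-/- BDL livers and 8.52, 8.58 and 8.32 in wildtype BDL livers, without overlap (0.76 ± 0.15 log2, adjusted p = 0.0387, limma). It passed in only 1 of the 6 fits without a ligated array (that without N05; adjusted p = 0.06 without N12), and not with the 6 ligated arrays alone (adjusted p = 0.151). Other myeloid genes, picked after their values were seen, rose as well: Fcer1g, the common gamma chain of Fc receptors (1.15 ± 0.24 log2), Sirpa, an inhibitory receptor of phagocytes (0.95 ± 0.17), Siglecf (1.16 ± 0.23), Slc7a7 (1.16 ± 0.23), Selplg, the ligand of P-selectin (0.83 ± 0.14), and Tlr13 (0.62 ± 0.13). None of these 6 passed with the 6 ligated arrays alone. None of 15 neutrophil, 21 T, NK and B cell, 9 MHC class II or 37 cytokine and chemokine genes passed. Their medians lay at 0.35 log2 for neutrophil, 0.33 for MHC class II and 0.03 for cytokine and chemokine genes, and near 0 for the lymphocyte genes. Before adjustment, p lay under 0.05 upwards for 5 neutrophil, 3 lymphocyte, 4 MHC class II and 4 cytokine and chemokine genes, and downwards for 1, 3, 0 and 2 of them. The shares of all genes were 6.74% upwards and 5.26% downwards. Slamf7, a receptor of lymphoid and myeloid cells that was also picked afterwards, fell by 1.30 ± 0.20 on the log2 scale.

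Bile duct genes gave 1 call. Of 19, 1 passed, where 0.525% of all genes passed upwards. This was Prom1, a protein of apical membrane protrusions and a marker of ductular progenitor cells. It read 7.22, 8.03 and 7.21 log2 in NRAS-/- BDL livers and 5.72, 5.57 and 5.24 in wildtype BDL livers (1.98 ± 0.31 log2, 3.94-fold, adjusted p = 0.00864), without overlap. It passed with the 6 ligated arrays alone and in 5 of the 6 fits without a ligated array (adjusted p = 0.0503 without N06). The median of the list was 0.17 log2, or -0.15 without N12. Krt19 read 5.89, 5.09 and 7.14 log2 in NRAS-/- BDL livers and 6.64, 5.51 and 5.44 in wildtype BDL livers, and Krt7, Epcam and Cldn4 were likewise highest on N12 and N04, 1 array of each genotype.

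Scar genes gave few calls. Of 37 matrix genes, 1 rose, where 0.525% of all genes did. Fbn1, the microfibril protein fibrillin, read 6.86, 7.02 and 7.21 log2 in NRAS-/- BDL livers and 6.14, 6.16 and 6.41 in wildtype BDL livers (0.80 ± 0.16 log2, adjusted p = 0.0447, limma). It passed in none of the 6 fits without a ligated array (adjusted p = 0.118 without N12) and not with the 6 ligated arrays alone (0.104). Col1a1, the main fibrillar collagen, read 8.00, 7.65 and 8.43 log2 in NRAS-/- BDL livers and 8.28, 7.31 and 7.32 in wildtype BDL livers, which overlapped (0.39 ± 0.26 log2, adjusted p = 0.6). The list's median was 0.11 log2. None of 23 stellate cell and myofibroblast genes passed. At an unadjusted p under 0.05, 4 of the 23 were higher, where 6.74% of all genes were. The median of these 23 was 0.23 log2, or -0.05 without N12, the array with muscle transcripts. Their mean was 7.55 log2 on N12, against 6.74 to 7.06 on the other ligated arrays. Mmp12 was the only one of 25 matrix proteases and inhibitors that passed. Pcolce, which speeds the trimming of procollagen (0.76 ± 0.14 log2), Igfbp7 (0.67 ± 0.14) and Ccn5 (0.99 ± 0.14), all secreted proteins picked after their values were seen, rose.

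Of 24 endothelial genes none passed, 7 were higher at an unadjusted p under 0.05, where 6.74% of all genes were, and the median was 0.49 log2, or 0.13 without N04 and 0.75 without N06. Emcn, an endothelial sialomucin, had the smallest p and read 6.34, 6.76 and 6.95 log2 in NRAS-/- BDL livers and 5.47, 6.0 and 5.90 in wildtype BDL livers (0.89 ± 0.23 log2, adjusted p = 0.112, limma). The list mean of wildtype array N06, 7.50 log2, lay within the 7.20 to 7.64 of the NRAS-/- arrays, and that of N04, 6.48 log2, was the lowest.

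**Figure D3:**
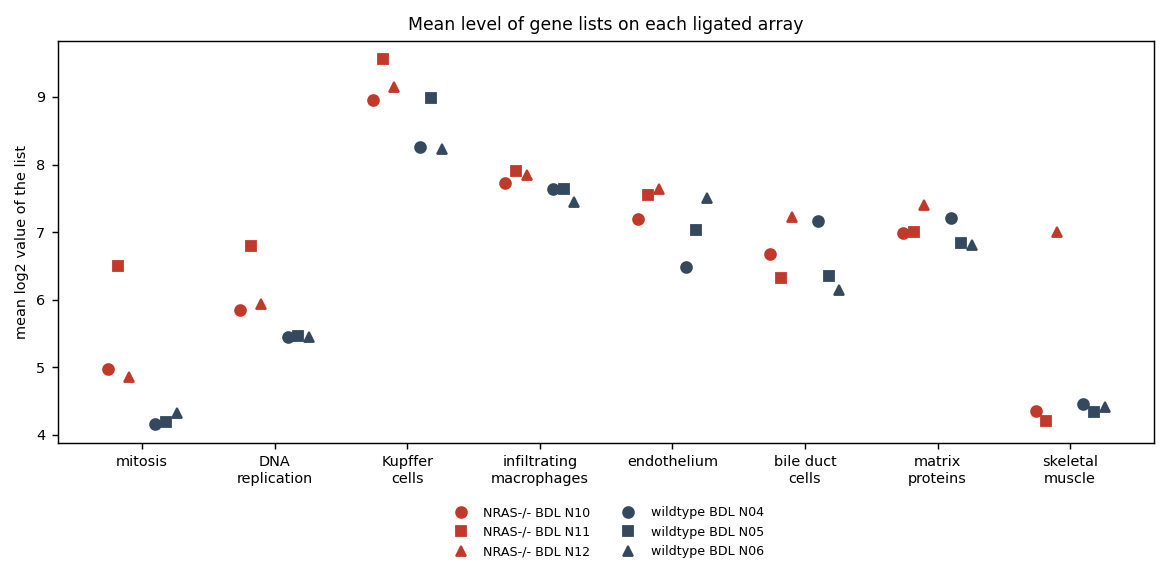
Mean log2 value (vertical axis) of 8 gene lists on each ligated array, NRAS-/- BDL in red on the left of each pair and wildtype BDL in dark blue on the right. The genotypes separate for mitosis and DNA replication and, more narrowly, for infiltrating macrophage genes. N05 lies among the NRAS-/- arrays for Kupffer cell genes, N12 and N04 are highest for bile duct genes, and N12 alone is high for skeletal muscle.

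Hepatocyte gene lists held few or no calls. None of 16 bile acid synthesis, 23 bile acid transport and sensing, 19 drug-metabolizing P450, 22 cholesterol synthesis or 25 other hepatocyte genes passed. At an unadjusted p under 0.05, 1, 1, 2, 2 and 0 of these lists' genes were higher and 2, 4, 6, 2 and 3 lower, in that order, where 6.74% of all genes were higher and 5.26% lower. Named after their values were seen, the P450 gene Cyp2c37 passed with the 6 ligated arrays alone (-1.06 log2, adjusted p = 0.0384), and Cyp1a2 (1.04 log2, adjusted p = 0.0429) and Cyp3a13 (-0.98 log2, adjusted p = 0.00632) passed without N12, all by limma. The mean of the P450 list was 9.47 log2 on the wildtype sham array N02 but 11.48 and 11.42 on N01 and N03. This spread enters the test over 12 arrays, which is less able to find differences in genes that vary so. In that test, the call that follows was missed narrowly. Cyp8b1, the sterol hydroxylase needed to make cholic acid, was nearest to the threshold, with 6.44, 5.56 and 6.17 log2 in NRAS-/- BDL livers and 6.84, 7.53 and 6.89 in wildtype BDL livers (-1.03 ± 0.24 log2, adjusted p = 0.0799). Cyp7a1, the rate-limiting enzyme of bile acid synthesis, read 10.68, 10.56 and 11.33 log2 in NRAS-/- BDL livers and 10.50, 10.06 and 9.53 in wildtype BDL livers (0.82 ± 0.36 log2, adjusted p = 0.387).

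Some metabolic genes outside those lists, picked after their values were seen, were called. Hao1, the glycolate oxidase of liver peroxisomes, rose by 1.53 ± 0.30 and Golm1, a Golgi protein that is raised in the blood in liver disease, by 1.51 ± 0.20 log2. Golm1 read 8.56, 8.86 and 8.36 log2 in NRAS-/- BDL livers and 6.92, 7.56 and 6.77 in wildtype BDL livers, and passed in every fit without a ligated array. Sord, sorbitol dehydrogenase, fell by 0.87 ± 0.14, Amdhd1, of histidine breakdown, by 0.97 ± 0.17, and Kyat3, a kynurenine aminotransferase, by 1.23 ± 0.25 on the log2 scale.

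Cyp2a4, a steroid hydroxylase that is higher in female than in male mouse liver, read 9.07, 8.12 and 9.11 log2 in NRAS-/- BDL livers and 10.50, 10.12 and 10.48 in wildtype BDL livers, a difference of -1.60 ± 0.63 log2 without overlap, with adjusted p of 0.322 over the 12 arrays and 0.0558 over the 6 ligated ones (both limma). On the sham arrays it read 8.97 log2 on the wildtype array with Y-linked signal and 12.16 to 12.31 on the other 5. None of the 11 female-biased and 10 male-biased genes passed over the 12 arrays, and 1 female-biased gene passed, lower in NRAS-/- BDL livers, over the 6 ligated ones. The female-biased genes had a median of -0.24 log2 and a largest fall of -3.58 log2, and 2 of the 11 differences were above 0. Their mean was 5.70, 5.42 and 5.14 log2 on N10, N11 and N12 and 6.12, 5.84 and 6.13 on N04, N05 and N06. On the wildtype sham arrays that mean was 5.22 log2 on N02 and 10.83 and 10.65 on N01 and N03, a spread that enters the test over 12 arrays.

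Genes of the MAP kinase and PI3K cascades and genes induced by ERK gave no call. For the cascade kinases the arrays measure RNA, not the phosphorylation that the study blotted for JNK and AKT. Of 23 MAP kinase and PI3K cascade genes and 21 ERK-induced genes and feedback inhibitors, none passed, and the medians were 0.05 and -0.09 log2. At an unadjusted p under 0.05, 1 cascade gene was higher and 1 lower, and no ERK-induced gene or feedback inhibitor was either. Of all genes, 6.74% were higher and 5.26% lower. Without overlap between the genotypes, 3 ERK-induced genes or feedback inhibitors were lower and none higher, where 8.29% and 8.32% of all genes were. In the fit without N05, 1 of them passed, lower in NRAS-/- BDL livers. Braf, the kinase directly downstream of Ras, read -0.41 ± 0.16 and Mapk3, which encodes an ERK kinase, 0.41 ± 0.17 log2, with adjusted p of 0.322 and 0.362. Rasal1, a GTPase-activating protein of Ras picked after its values were seen, rose by 1.25 ± 0.25 log2 (adjusted p = 0.0362, limma). None of 22 cell death genes passed, with a median of 0.06 log2. At an unadjusted p under 0.05, 6 of them were higher and none lower, where 6.74% and 5.26% of all genes were. Without overlap between the genotypes, 6 were higher and 3 lower, where 8.32% and 8.29% of all genes were. The remaining lists without a call were those of fatty acid synthesis and lipid droplets, the growth hormone and IGF axis, acute phase proteins, NRF2 targets and the clock, and of pancreas, adipocyte, mesothelium, intestine and erythroid markers, with medians between -0.33 log2 for the 19 clock genes and 0.03 for the 23 acute phase genes.

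The genotypes were also compared in sham-operated, oil-treated and CCl4-treated livers, to see which differences are found without ligation. These groups share no arrays with the ligated ones, though the sham arrays share the fit. Among the oil arrays, N28 (NRAS-/-) alone had low Y-linked signal, as most sham arrays did, which goes against its label as male. The oil contrast thus sets unlike arrays of NRAS-/- mice against wildtype arrays that all had Y-linked signal. N28 also entered the fit that gave the CCl4 contrast. How far this affects the overlaps below was not tested. Of the 149 genes, 46 (30.9%) also passed in the same direction in sham livers, where they made up 51.1% of 90 calls (0.426% of all genes). The same count was 43 in oil-treated livers, where 179 genes (0.847%) passed, and 69 in CCl4-treated livers, where 3020 genes (14.3%) passed, 8.72% higher and 5.56% lower, so that these 69 are 2.28% of that list. Passing in all 4 comparisons were 19 higher and 11 lower genes, with Nras among the lower, and 59 higher and 11 lower genes passed after BDL alone. By direction only, 99 of the 111 higher and 37 of the 38 lower genes went the same way in sham livers. Their median sham differences were 0.46 and -0.73 log2, against 1.09 and -1.29 after BDL. After CCl4, 85 and 32 of them went the same way.

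The 30 genes that passed everywhere included Gm4788, Ildr2, Ifi213, Mndal, Aspdh and Erdr1 among the lower and Prelid2, Wdr72, Abca3, Abi3bp and Snap23 among the higher ones. Gm4788 differed by -4.01 log2 after BDL, -4.20 after the sham operation and -4.28 after CCl4. A further 8 of the 30 were genes of a zinc finger cluster on chromosome 2. Of 32 genes of that cluster, 13 rose after BDL (0.525% of all genes did), with median differences of 0.61 log2 after BDL, 0.66 after the sham operation and 1.28 after CCl4. They are near copies of each other, and 5 of the 32 had values shared with another probe set. The share of called genes was 1.48% on chromosome 1 (9 higher, 8 lower), 1.46% on chromosome 2 (23 higher, 2 lower) and 1.14% on chromosome 3, where Nras lies, against 0.705% of all genes.

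No gene passed the test of the difference between the genotype effect after BDL and after the sham operation (0 of 21144, limma), and at an unadjusted p under 0.05 the difference was higher for 722 and lower for 692. Calml4, with a genotype difference of 2.47 log2 after BDL and 0.64 after the sham operation, had an adjusted p of 0.197 for that difference, and so had Dab1, with 3.13 and 0.69 log2. The genes that passed after BDL alone are thus not shown to differ between ligated and sham-operated livers. The sham contrast sets 3 NRAS-/- arrays of low Y-linked signal against 2 such wildtype arrays and N02 (7.87 log2). The median sham genotype difference of 11 female-biased genes was 1.71 log2. How far this imbalance affects the test was not tested.

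The genotype effect after BDL differed from that after CCl4 for 1605 genes (7.59%, limma over all 24 arrays), and for 58 of the 149. Prc1 differed between genotypes by 1.86 log2 after BDL and by -0.77 after CCl4, Kif20a by 2.56 and -0.06, and Racgap1 by 2.04 and -0.27. The difference between the 2 effects passed for these 3 genes and, in the same direction, for 10 of the 32 mitosis genes (2.97% of all genes), and the mitosis list had a median of 0.00 log2 after CCl4. Akr1c18, Hao1 and Pyroxd2 rose after BDL and fell after CCl4, with 2.73 and -1.46 log2 for Akr1c18. Dab1, at 3.13 and 2.49 log2, did not differ at the threshold between the 2 injuries (adjusted p = 0.37).

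**Figure D4:**
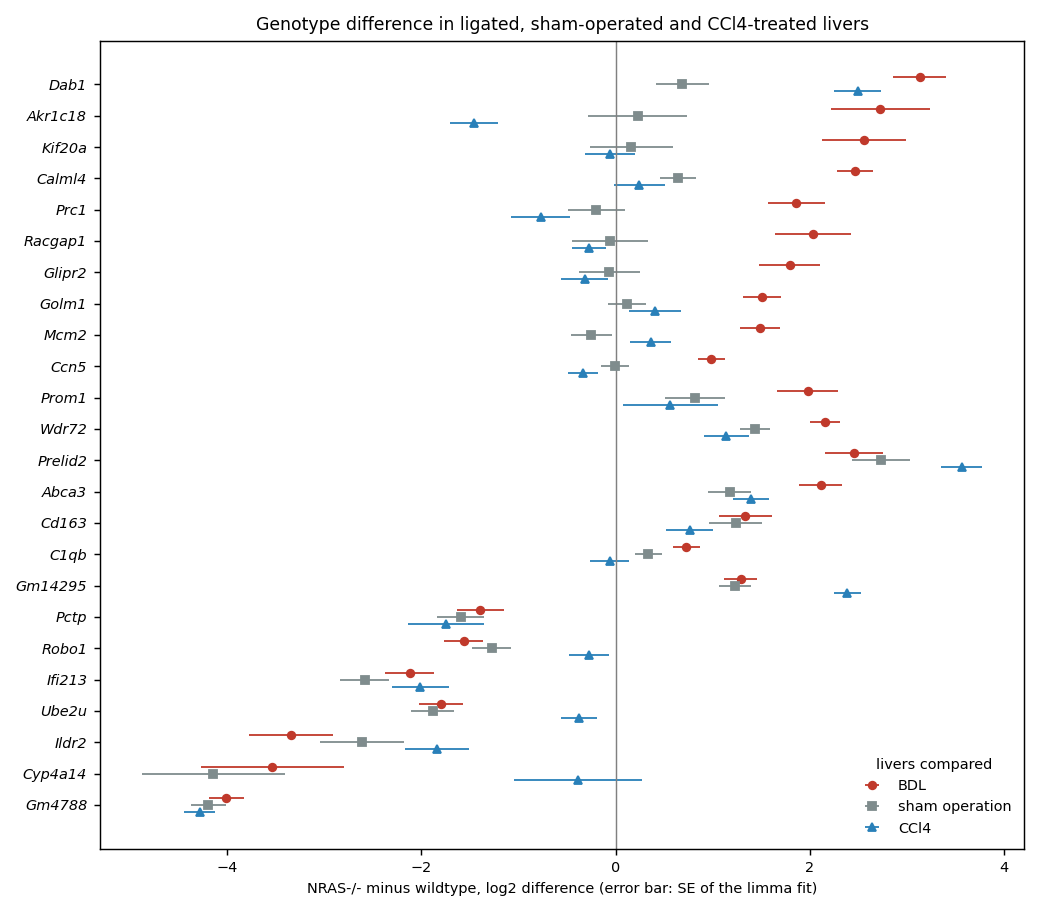
Genotype difference, NRAS-/- minus wildtype, in log2 units (horizontal axis) for 24 genes after BDL (red circles), sham operation (grey squares) and CCl4 (blue triangles), with the SE of the limma fit as error bars. Gm4788, Ildr2 and Ifi213 are low and Prelid2 and Abca3 high in all 3, while Kif20a, Prc1 and Racgap1 are near 0 or below after the sham operation and CCl4.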

How the data were processed

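Liver RNA was measured on Affymetrix mouse arrays with 22206 probe sets. The deposited values are log2 signals per probe set and array, already normalized by the authors, who used a procedure not given in the sources used here. The submitters' processing notes name MAS5 without its role, and the labels name a Cy3 kit beside biotin. The workbook's other columns hold the authors' group means, ratios, p-values and adjusted p-values of their comparisons and were not used. No column of per-array values was left out, and precision is limited by 3 arrays per group.

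Only the 21367 probe sets with 1 gene symbol entered, which dropped 836 with several and 3 without a symbol. Names were brought up to date from the RefSeq annotation of GRCm38.p6 (883 changed). For 143 genes with several probe sets the probe set of highest mean stood for the gene, giving 21144 genes. Of these, 130 share all values with another probe set.

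The 4 groups of the BDL experiment (12 arrays) entered 1 model in limma 3.58.1 (lmFit, eBayes) under R 4.3.3 with the data.table package (1.17.8). The contrast was NRAS-/- BDL minus wildtype BDL, with Benjamini-Hochberg adjustment over all genes and a threshold of 0.05. The genotype contrast of sham-operated livers came from the same fit, those of CCl4 and oil from the 12 arrays of that experiment, and the difference between BDL and CCl4 from all 24 arrays. The study's methods name no array test. Alternatives were other sets of arrays, array weights, centring on the median, quantile normalization, a floor of 32, a filter at the 40th percentile, eBayes with trend and robust settings, the mean of probe sets, a 2-fold minimum, the t-test that the methods name for other readouts, and leaving out each ligated array. The fit was tested on simulated data. Results were tabulated and plotted with Python 3.11.15, pandas 2.3.3, NumPy 2.4.6 and Matplotlib 3.10.9.

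Of the 747 genes in 39 lists, 731 were matched to a measured gene by symbol or listed synonym. By synonym, Srebf1 was matched to Tom1l2, Loxl2 to Loxl3 and Mup7 to Mup1. The values of these other genes entered the fatty acid synthesis, matrix and male-biased lists in their place. Genes were named by a rule: Nras and a relative, the 15 largest rises and falls among calls without overlap, the members of each list that passed (at most 4, or else the 2 with the smallest adjusted p), Acta1 and Myh8, calls near Nras and calls shared by all genotype comparisons. Others are marked or have their values given as further list members, and a few genes are not reported here. The members, lists and rule were chosen with earlier results of these data known.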

Additional observations from a re-analysis of the deposited data

Results flagged for a closer look

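The genotype effect after BDL differed from that after CCl4, by the limma test over 24 arrays, for 21 of the genes named by rule. The difference (BDL effect minus CCl4 effect) was above 0 for Akr1c18 (4.18 log2), Prc1 (2.63), Kif20a (2.62), Racgap1 (2.31), Calml4 (2.22), Glipr2 (2.12), Ccnb2 (1.65), Elapor1 (1.20), Mcm2 (1.13) and Wdr72 (1.02). It was below 0 for Ube2u (-1.42 log2), Robo1 (-1.29), Zfp970 (-1.14), Olfr1372-ps1 (-1.12), Gm14295 (-1.10), Gm14419 and Gm2004 (-1.01 each, with the same values on this array), Gm14308 (-0.93), Gm2026 (-0.86), Gm14326 (-0.79) and Zfp971 (-0.79).

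Robo1 and Ube2u fell after BDL and read -0.28 and -0.38 log2 after CCl4. The 8 zinc finger genes and Olfr1372-ps1 were higher in NRAS-/- livers in both injuries, by more after CCl4. The groups of 3 arrays were not screened for single outlying arrays.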

How the results depend on the processing

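Against 111 higher and 38 lower genes, the counts moved by over 1.5 times with the 6 ligated arrays alone (34 and 22) and with all 24 arrays (200 and 66). They also moved so with a floor of 32 (53 higher), a 2-fold minimum (69 higher) and trended and robust eBayes (60 lower). Without the sham arrays of low Y-linked signal, N02 is the only sham array and adds nothing to the spread. That fit must give the same result as the 6 ligated arrays alone and is no separate check. The methods' t-test gave 983 and 936 at p under 0.05, and 0 and 1 after adjustment. Leaving out 1 ligated array gave 49 to 156 higher and 20 to 40 lower genes. The higher count moved by over 1.5 times without N10 (72), N11 (49), N04 (49) or N06 (53), and the lower count without N10 (25), N11 (20) or N06 (20). The differences between BDL and sham and between BDL and CCl4 were run with quantile normalization, median centring, the filter, the floor, trended eBayes, array weights and without 1 array only. The first gave 1 gene with the floor, 0 with the others and 0 to 0 without 1 array. The second gave 1578 to 1932 genes, and 1203 to 1583 without 1 array. The cause was not tested.

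Of 1074 values of the 57 named genes that passed, none changed sign, 814 kept their side of the threshold and 260 no longer passed. The t-test with adjustment lost 56 of the 57, a floor of 32 lost 26, and the 6 ligated arrays alone lost 23. Without 1 array, Acta1 lay between -0.17 (without N12) and 3.23 log2 and Myh8 between -0.11 (without N12) and 3.14, and neither passed with all arrays. No paired analysis was possible because the groups compared share no replicate numbers. Values near the low end of the array, as for Kif20a or Calml4 in wildtype livers, carry no detection call in the values used here.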
